A study of Mus musculus with 10 samples.

Results

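RNA-seq was used to follow 173 very long 3′UTR features in mouse embryonic stem cells (ESC). A feature is the 3′UTR of 1 UCSC transcript with 2 kb of downstream sequence added. It was kept here when its summed exon length was at least 7000 bases and when it shared no base with another feature on either strand. Taken as this length less 2 kb, the 3′UTR is at least 5 kb, which the gene annotation does not bear out for every feature. Of 43031 features, 1098 were this long, and 925 of them shared bases with another feature. Among the 13712 features of any length that shared no base with another, the 173 were the longest class. Their lengths ran from 7005 to 84649 bases with a median of 7989.

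The 3′UTR is the part of an mRNA that follows the stop codon and ends at the site of cleavage and polyadenylation, which is set in part by an A-rich signal such as AATAAA shortly before the end. It carries binding sites for microRNAs and RNA-binding proteins that act on mRNA stability, translation and localization. Very long 3′UTRs are known from genes of neurons and of developmental regulation, and one gene can make mRNAs with short and long 3′UTRs by use of alternative ends.

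Cells of 3 genotypes on the C57BL/6 strain were compared. The first was wild type (WT). The second, DIDO3ΔE16, lacks exon 16 of Dido1, the exon specific to the DIDO3 protein, after Cre-mediated deletion of a floxed allele. The third, DIDO3ΔCT+HADIDO3, carries a C-terminal deletion of DIDO3 that affects the same exon and was reconstituted with HA-tagged DIDO3 (HADIDO3), so it differs from WT by both the deletion and the added construct. All cells were grown with leukemia inhibitory factor in serum, on feeder fibroblasts or gelatin, and the labels do not say which plates were used for which library. Each group had 3 libraries; for WT these were replicates 1, 2-3 (1 library labelled for 2 samples) and 4. Nothing states that the libraries of a group came from separate cultures or clones, so p-values measure the spread between these samples, which may be technical.

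Aligned bases in all features added up to 1.46 to 2.61 Gb per library, of which 26.97 to 48.98 Mb fell in the 173 features. At the median length, 1 TPM (the length-normalized share of a library) corresponded to 3.47 to 6.19 kb of aligned bases, so values well below 1 TPM rest on few reads. Feature uc008ojq.2, at the distal end of Dido1, ranged from 13.7 to 17.9 TPM in WT, from 0.307 to 0.546 in DIDO3ΔE16 cells and from 10.9 to 12.1 in DIDO3ΔCT+HADIDO3. All 10 of 10 ESC marker genes were above 1 TPM in every group. The summed TPM of 12 feeder fibroblast genes, none at 0, was 246.5 to 288.6 in WT, 521.8 to 558.4 in DIDO3ΔE16 cells and 93.2 to 96.1 in DIDO3ΔCT+HADIDO3. Their part in the differences below was not tested. In bulk RNA, fewer cells of a type and less RNA per cell cannot be told apart. The codes in the library names of WT replicates 1 and 4 begin differently from those of all other libraries. These codes are read here as flow cell families, which no label states. With this family as a covariate, the mutant lines are compared with WT replicate 2-3 alone.

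Of the 173 features, 71 were given a gene by an annotated 3′ end in GENCODE M21 (GRCm38, the build of the files), 99 by overlap with exons, and 3 matched no gene. Of the matched features, 162 lay in protein-coding genes. In 156 the feature was a single exon, and 17 had 2 or more exons. For Epha4, Irs1, Dab1, Kcna6 and Kif5c, each of 2 exons, 62.3%, 69.3%, 62.6%, 63.6% and 64.4% of the 3′UTR lay in exons of the gene. The 3′UTR of such features may thus be shorter than 5 kb. Chromosome 1 held 26 of the 173 (15%), against 6.3% of all features that shared no base with another. The class is not made of long 3′UTRs alone. In 20 features with an assigned gene less than 50% of the 3′UTR lay in its exons, 7 covered coding bases of it, and 41 covered exon bases of another gene. Among the features described below, 1090 bases of Lrrc58 were exons of the pseudogene Gm15725 and 663 bases of Rnf150 of the antisense gene Gm45449. In Nova1, 476 bases were exons of the lincRNA B230217J21Rik, and in Slc4a8, 293 bases of the lincRNA Gm35569. Shorter stretches of other genes lay in St8sia1 (149 bases), Trim67 (140), Tfcp2l1 (130), Etnk1 (128, in uc009eqf.3) and Itsn1 (107), among others. Of the Kcnc1 feature, 189 bases were coding. The longest, Kcnq1ot1 (84649 bases, chr7:143211111-143295759, reverse strand), is an imprinted antisense RNA, and the next, Cyp3a41b (25005 bases), covers coding exons.

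The last 30 bases before the annotated end are printed for features that the results below turn on, to show where these long 3′UTRs stop within the measured region; each feature runs 2 kb farther. The sequences are from GENCODE M21 transcripts on GRCm38, 5′ to 3′ on the strand of the gene, with the poly(A) signal AATAAA or ATTAAA in capitals.
Tfcp2l1, chr1:118685139-118685168, forward: atgcaAATAAAaccatttgtactaaaccca
Bend4, chr5:67392147-67392176, reverse: tgcacAATAAAtgtcaagttacctgttaag
Etnk1, chr6:143208517-143208546, forward: tgtaacAATAAAgttgagttctaactataa
Grk1, chr8:13421922-13421951, forward: agccccaATTAAAtgctttcctttataaaa
Prlr, chr15:10336980-10337009, forward: tgcctggctcAATAAAtgtttgttttcctg
Sox11, chr12:27334264-27334293, reverse: caAATAAAttcattgacatttctggctaaa
St8sia1, chr6:142821545-142821574, reverse: cctgtgAATAAAatggcttttttttttcaa
In 6 of these 7 the signal is the canonical AATAAA, and in Grk1 it is the variant ATTAAA. The counts of sequence matches given after the expression results rest on 120 features. In these the last exon of 1 annotated transcript covered at least 95% of the 3′UTR. A few of them hold coding bases, such as Vezt (263 bases), or belong to noncoding genes, such as Dnm3os.

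A second set shows the match to the seed of the ESC microRNAs of the miR-290 family. The mature microRNAs are from RefSeq (GRCm38.p6), with the seed (bases 2 to 8) in capitals, and miR-294-3p, miR-291a-3p and miR-295-3p share it. In each 28-base window of a 3′UTR the reverse complement of the seed, AGCACTT, is in capitals.
mmu-miR-294-3p: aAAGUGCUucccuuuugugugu
mmu-miR-291a-3p: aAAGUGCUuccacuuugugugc
mmu-miR-295-3p: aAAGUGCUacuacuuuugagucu
Tfcp2l1, chr1:118683193-118683220, forward: gctcgatggccgAGCACTTcccaactgc
Bend4, chr5:67393402-67393429, reverse: gttgctttggtaAGCACTTtaatgcatc
Etnk1, chr6:143207340-143207367, forward: gcttgatcgataAGCACTTtaactcctg
Zmat3, chr3:32339096-32339123, reverse: gtgggtttccgaAGCACTTggaagttcc
Ncl, chr1:86348785-86348812, reverse: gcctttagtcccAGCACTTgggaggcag
The Ncl window resembles the start of the mouse B1 repeat. Among the 96 windows read, from 64 features, AGCACTT was followed at once by GGGAGG in 10, in 8 features. Windows were not read for 4 more features that hold the match.

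Levels varied widely among the features. The median of the 173 features in WT was 15.53 TPM, against 1.6 TPM for all features that shared no base with another. In WT, 17 had a mean of at least 100 TPM, 85 of 10 to 100, 33 of 1 to 10, and 38 less than 1 TPM. A total of 160 were above 0 in all 9 libraries and 2, Cyp3a41b among them, were listed at 0 in all. Together they took 0.717% to 0.783% of all TPM of a library. The per-library medians ran from 14.3 to 16.7 TPM in WT, from 15.1 to 15.8 in DIDO3ΔE16 cells and from 14.9 to 16.9 in DIDO3ΔCT+HADIDO3, so the groups overlapped in this median.

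The 8 most abundant features in WT were those of Tfcp2l1, Etnk1, Bend4, Ago2, Zmat3, Lrrc58, Mapre1 and Ncl. Tfcp2l1 encodes a transcription factor of naive pluripotency. Its TPM in the WT libraries was 749.9, 733.3 and 740.5. In DIDO3ΔE16 it was 1032, 1000.2 and 1018, and in DIDO3ΔCT+HADIDO3 it was 1037, 984.2 and 981.2. Every mutant library was above every WT library, but the log2 fold changes of 0.39 ± 0.02 (SE) and 0.34 ± 0.04 were below the size of 0.7 used here for a call. Ago2, the Argonaute protein that cleaves targets of small RNAs, was the steadiest of them, with 446 ± 18.9 TPM (SD, n = 3) in WT, 444 ± 9.41 in DIDO3ΔE16 cells and 438 ± 13.9 in DIDO3ΔCT+HADIDO3, and the groups overlapped. Mapre1, a protein of microtubule plus ends, had 179 ± 9.16, 170 ± 5.31 and 165 ± 4.91 TPM in the same order.

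**Figure D1:**
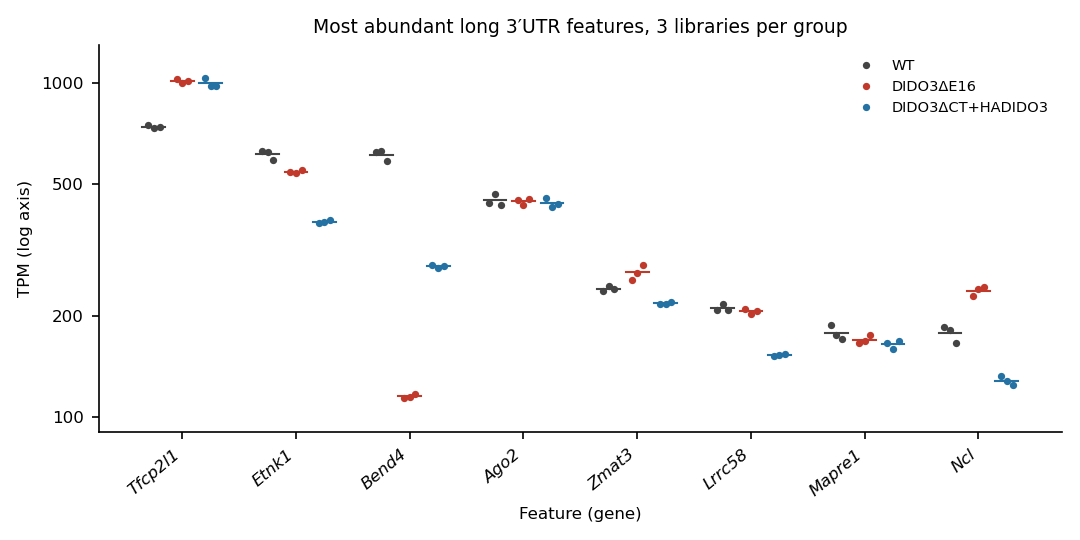
TPM on a log axis of the 8 features with the highest mean in WT. Points are the 3 libraries of each group and the short lines are group means. Bend4 shows the widest separation, with 115 TPM in DIDO3ΔE16 against 612 in WT, and Ago2 the least.

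Ethanolamine kinase 1 (Etnk1, uc009eqf.3), of phosphatidylethanolamine synthesis, was lower in both mutant lines, with 629.4, 624 and 589.4 TPM in WT, 544.2, 537.3 and 551.2 in DIDO3ΔE16 cells, and 381.4, 384.1 and 389.3 in DIDO3ΔCT+HADIDO3. The 3 groups did not overlap. Only the change in DIDO3ΔCT+HADIDO3 was large enough for a call (log2 fold change -0.77 ± 0.03, limma adjusted p = 0.000228), and it fell short of the fold threshold without scaling and with quantile normalization. Nucleolin (Ncl), a protein of ribosome biogenesis, lay at 178 ± 10.1 TPM in WT, above that at 239 ± 7.72 in DIDO3ΔE16 and below it at 129 ± 3.78 in DIDO3ΔCT+HADIDO3, and was called between the mutant lines (0.91 ± 0.05, limma adjusted p = 0.000221). Zmat3, a zinc finger RNA-binding protein, followed the same order with 242, 272 and 219 TPM for WT, DIDO3ΔE16 and DIDO3ΔCT+HADIDO3, and Lrrc58, a leucine-rich repeat protein, had 212, 207 and 154 TPM. Neither passed the fold threshold in any comparison.

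The first comparison asked which long features differed after loss of exon 16. Between DIDO3ΔE16 and WT, 163 of the 173 features had a TPM above 0 in all 6 libraries and were tested. A feature was called when its absolute log2 fold change was at least 0.7 and its adjusted p (limma, Benjamini-Hochberg over all 24677 features tested) was below 0.05. By this rule 34 of the 163 (20.9%) were called, 26 higher and 8 lower in DIDO3ΔE16. Among the 112 features of clean annotation, of which 105 were tested, the split was 14 higher and 8 lower. Over all features tested the share was 12.6%, with 8.4% higher and 4.24% lower; among features of any length that shared no base with another it was 16.1%, with 10.9% higher and 5.15% lower. The median log2 fold change of the 163 was -0.029, beside -0.016 over all features, and it was 0.034 without scaling and 0.008 with quantile normalization. In 112 of the 163 (68.7%) the 3 values of one group all lay above those of the other, against 43.8% of all features tested. For a single value, 3 libraries against 3 cannot give an exact 2-sided permutation p below 0.1.

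Bend4, a BEN domain protein, had the largest decrease. Its TPM was 624.7, 626 and 583.9 in WT, 113.6, 114.4 and 117.4 in DIDO3ΔE16 cells, and 285.7, 279.3 and 283.3 in DIDO3ΔCT+HADIDO3. The 3 groups were far apart, with the mutant lines on the same side of WT. Relative to WT, the change was 5.54-fold lower in DIDO3ΔE16 (log2 -2.47 ± 0.03, limma adjusted p = 3.17e-05) and 2.31-fold lower in DIDO3ΔCT+HADIDO3 (-1.21 ± 0.03, limma adjusted p = 0.000147). The mutant lines also differed from each other (-1.28 ± 0.03, limma adjusted p = 3.74e-05).

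The other decreases in DIDO3ΔE16 named here were smaller or of low features. The prolactin receptor (Prlr) had 1.24, 1.20 and 1.03 TPM in WT, 0.126, 0.19 and 0.292 in DIDO3ΔE16 cells, and 0.139, 0.261 and 0.155 in DIDO3ΔCT+HADIDO3. Both mutant lines lay below WT and overlapped each other, with log2 fold changes of -2.14 ± 0.25 (limma adjusted p = 0.00471) and -2.24 ± 0.21 (limma adjusted p = 0.0024). Setd7, a lysine methyltransferase, had 49.8, 46.6 and 46.2 TPM in WT and 25.4, 26.0 and 27.03 in DIDO3ΔE16 (-0.92 ± 0.05, limma adjusted p = 0.000699), while DIDO3ΔCT+HADIDO3 lay near WT at 45.3 ± 1.21. The same pattern was seen for Prtg, protogenin, an immunoglobulin superfamily protein of the early embryo, with 23.6 ± 0.681, 14.1 ± 1.16 and 25.9 ± 1.44 TPM for WT, DIDO3ΔE16 and DIDO3ΔCT+HADIDO3. The X-linked 2610002M06Rik had 13.6 ± 0.684, 5.99 ± 0.967 and 19.1 ± 1.65 TPM in that order. Sox11, a transcription factor of neural progenitors, fell in both lines: it had 58.4, 50.4 and 51.4 TPM in WT, 31.7, 33.0 and 32.4 in DIDO3ΔE16 cells, and 18.4, 19.4 and 23.2 in DIDO3ΔCT+HADIDO3, again with no overlap between the groups. Its call in DIDO3ΔE16 (-0.78 ± 0.07) was lost with quantile normalization and with flow cell family as a covariate.

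Several of the largest increases in DIDO3ΔE16 were of features below 1 TPM in WT. Grk1, rhodopsin kinase, had 0.388, 0.477 and 0.219 TPM in WT, 3.73, 4.01 and 3.82 in DIDO3ΔE16 cells, and 0.044, 0.123 and 0.251 in DIDO3ΔCT+HADIDO3. It was 8.49-fold higher in DIDO3ΔE16 than in WT (log2 3.09 ± 0.26, limma adjusted p = 0.00202). Dcc, the netrin receptor of axon guidance, had 0.346, 0.422 and 0.237 TPM in WT, 3.13, 3.07 and 3.99 in DIDO3ΔE16 cells, and 0.368, 0.473 and 0.412 in DIDO3ΔCT+HADIDO3, where it overlapped WT. Onecut2, a homeodomain transcription factor with the third longest feature (13857 bases), had 0.618, 0.62 and 0.754 TPM in WT and 3.15, 3.04 and 3.1 in DIDO3ΔE16 (2.01 ± 0.15, limma adjusted p = 0.00145). In DIDO3ΔCT+HADIDO3 it lay between, at 1.19 ± 0.178 TPM.

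Higher levels were reached by Slc4a8, Soga1 and Grik3. Slc4a8, a sodium-driven chloride/bicarbonate exchanger, had 4.35, 4.45 and 4.27 TPM in WT, 18.2, 19.2 and 20.6 in DIDO3ΔE16 cells, and 6.39, 6.65 and 6.46 in DIDO3ΔCT+HADIDO3. All DIDO3ΔE16 libraries were more than 10 TPM above all others (log2 fold change to WT 2.06 ± 0.08, limma adjusted p = 0.000315). Soga1 had 15.3, 16.1 and 15.6 TPM in WT, 54.1, 59.1 and 60.9 in DIDO3ΔE16 cells, and 13.8, 14.9 and 14.7 in DIDO3ΔCT+HADIDO3, but only 32.3% of its 3′UTR lay in exons of that gene. Grik3, a kainate-type glutamate receptor subunit, was higher in both mutant lines, with 34.1, 32.4 and 32.6 TPM in WT, 109.6, 111.4 and 113.2 in DIDO3ΔE16 cells, and 99.2, 99.0 and 98.8 in DIDO3ΔCT+HADIDO3. Its log2 fold changes to WT were 1.69 ± 0.04 (limma adjusted p = 6.7e-05) and 1.49 ± 0.04 (limma adjusted p = 0.000126), and no library of one group overlapped another group.

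In the comparison of DIDO3ΔCT+HADIDO3 with WT, the test covered 161 long features and called 39 of them (24.2%), 18 higher and 21 lower. Over all 24720 features tested, 13.9% were called, 8.03% higher and 5.85% lower, and 19.9% of features that shared no base with another were called, 12% higher and 7.87% lower. The median log2 fold change of the 161 was -0.087, beside -0.017 over all features. Without scaling it was 0.008, and the calls were then 23 higher and 18 lower, so no direction of the class as a whole is given here. The groups did not overlap for 116 of the 161 (72.0%), against 46.9% of all features tested. Both comparisons with WT share the same 3 WT libraries.

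St8sia1, the sialyltransferase that makes ganglioside GD3, had the largest increase in DIDO3ΔCT+HADIDO3. It had 1.75, 1.23 and 1.29 TPM in WT, 2.05, 2.30 and 2.31 in DIDO3ΔE16 cells, and 9.99, 11.0 and 12.1 in DIDO3ΔCT+HADIDO3. The 3 groups were apart, with DIDO3ΔCT+HADIDO3 highest, 6.92-fold above WT (log2 2.79 ± 0.16, limma adjusted p = 0.000682). Irs1, the adaptor of insulin receptor signalling, followed the same order with 2.09 ± 0.164, 3.49 ± 0.427 and 9.68 ± 1.06 TPM in WT, DIDO3ΔE16 and DIDO3ΔCT+HADIDO3 (2.06 ± 0.12 in DIDO3ΔCT+HADIDO3, limma adjusted p = 0.000635), though 2822 bases of the feature were exons of the opposite-strand gene Gm9747. Epha4, an ephrin receptor of axon guidance, had 6.75, 6.10 and 6.19 TPM in WT, 9.25, 9.55 and 9.69 in DIDO3ΔE16 cells, and 23.6, 22.9 and 25.6 in DIDO3ΔCT+HADIDO3. It too rose in DIDO3ΔCT+HADIDO3 by the test (1.81 ± 0.07, limma adjusted p = 0.00034), and its DIDO3ΔE16 value of 0.51 ± 0.08 was below the fold threshold.

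The voltage-gated potassium channel subunits Kcnc1 and Kcna6 were low in WT, at 0.27 ± 0.102 and 0.269 ± 0.106 TPM, and reached 2.08 ± 0.441 and 1.06 ± 0.224 TPM in DIDO3ΔCT+HADIDO3. Kcnc1 in DIDO3ΔE16, at 0.305 ± 0.0476 TPM, overlapped WT. The call of Kcna6 was lost without WT replicate 1, with flow cell family as a covariate and with the replicate block. It was also lost with a pseudocount of 1 TPM and with an adjusted p threshold of 0.01. Camk4, a calcium/calmodulin-dependent kinase, had 0.289, 0.255 and 0.227 TPM in WT, 0.854, 0.644 and 1.19 in DIDO3ΔE16 cells, and 1.32, 1.08 and 1.41 in DIDO3ΔCT+HADIDO3. Every mutant library was above every WT library. Its call in DIDO3ΔE16 (1.40 ± 0.25, limma adjusted p = 0.0166) was lost without WT replicate 2-3, WT replicate 4 or DIDO3ΔE16 replicate 1. A pseudocount of 1 TPM and an adjusted p threshold of 0.01 also removed it. Of the 3′UTR of Camk4, 10.3% lay in exons of the gene. Kcnq1ot1 was higher in both lines, with 0.847 ± 0.0678 TPM in WT, 1.89 ± 0.0191 in DIDO3ΔE16 cells and 2.72 ± 0.219 in DIDO3ΔCT+HADIDO3, and it was called in both. With a pseudocount of 1 TPM its call in DIDO3ΔE16 was lost.

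Decreases in DIDO3ΔCT+HADIDO3 were led by Shisa6, an auxiliary protein of AMPA receptors, with 1.85, 1.48 and 0.983 TPM in WT, 1.66, 1.36 and 2.11 in DIDO3ΔE16 cells, and 0.147, 0.291 and 0.134 in DIDO3ΔCT+HADIDO3. DIDO3ΔE16 overlapped WT, and all libraries of DIDO3ΔCT+HADIDO3 lay below both (log2 fold change to WT -2.48 ± 0.32, limma adjusted p = 0.00596). Sema5a, a semaphorin of axon guidance, was measured at a higher level, with 4.84, 4.19 and 4.87 TPM in WT, 5.20, 5.10 and 5.81 in DIDO3ΔE16 cells, and 1.22, 1.23 and 1.20 in DIDO3ΔCT+HADIDO3 (-1.94 ± 0.12, limma adjusted p = 0.000782). Here the DIDO3ΔE16 libraries lay just above those of WT. Tceanc2, which holds a domain like that of the elongation factor TFIIS, had 14.4, 14.2 and 13.96 TPM in WT, 21.4, 23.6 and 22.8 in DIDO3ΔE16 cells, and 2.95, 3.64 and 4.34 in DIDO3ΔCT+HADIDO3. The 3 groups of Tceanc2 did not overlap (-2.04 ± 0.14 for DIDO3ΔCT+HADIDO3, limma adjusted p = 0.00116); 1293 bases of this feature were exons of Gm12802, an antisense gene on the opposite strand. Hecw2, a HECT-type ubiquitin ligase, had 2.31, 2.15 and 1.93 TPM in WT, 3.63, 4.08 and 4.12 in DIDO3ΔE16 cells, and 0.795, 0.651 and 0.799 in DIDO3ΔCT+HADIDO3. It was called lower in DIDO3ΔCT+HADIDO3 (-1.48 ± 0.15, limma adjusted p = 0.00285) and higher in DIDO3ΔE16 (0.80 ± 0.12, limma adjusted p = 0.0103), the second of which was lost with quantile normalization, a pseudocount of 1 TPM, the replicate block and an adjusted p threshold of 0.01.

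**Figure D2:**
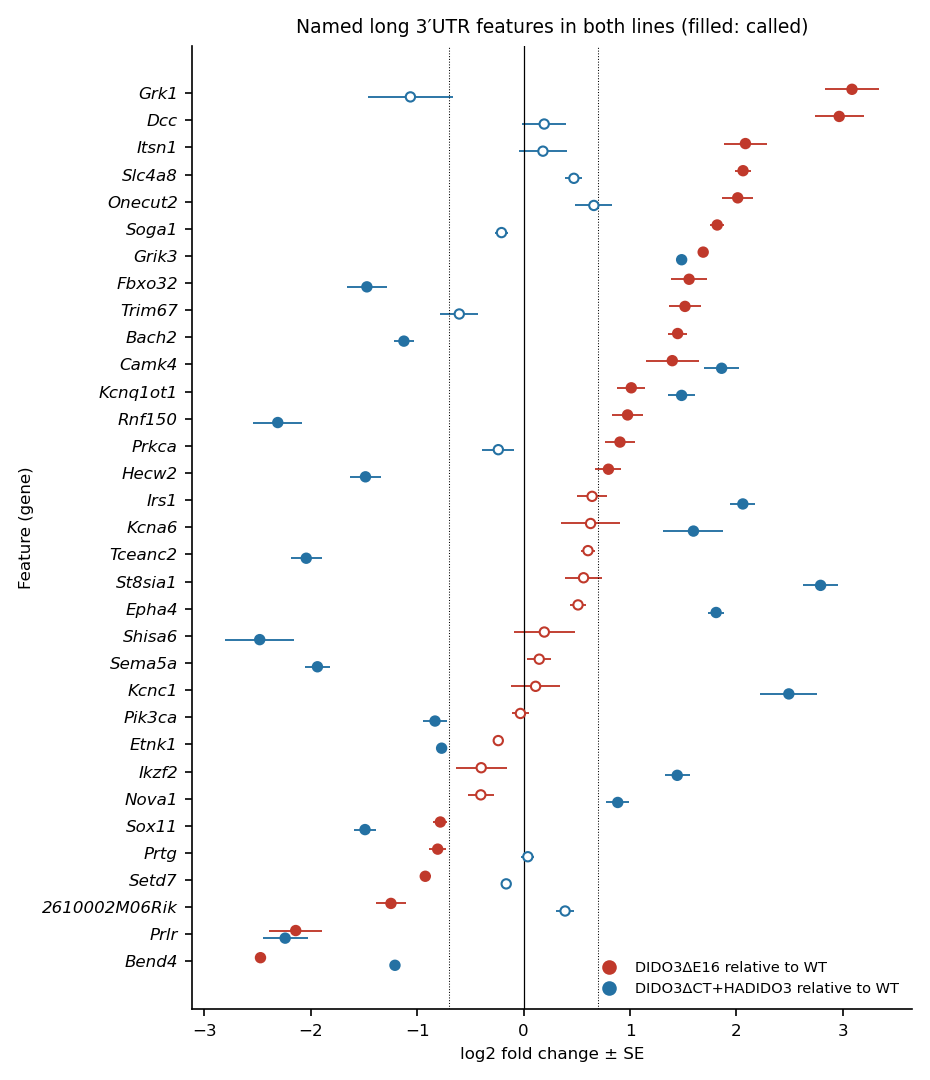
Log2 fold change relative to WT, with its SE, of the named features called in at least 1 of the 2 lines. Filled points were called, open points were not, and dotted lines mark 0.7 in each direction. Of features called in both lines, Grik3, Camk4 and Kcnq1ot1 lie to the right in both, Bend4, Prlr and Sox11 to the left in both, and Bach2, Fbxo32, Rnf150 and Hecw2 on opposite sides. Features called in only 1 line are not sorted here.

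The direct comparison of the mutant lines, which does not use WT, gave the most calls. Of 162 features tested, 66 (40.7%) were called, 39 higher and 27 lower in DIDO3ΔE16 than in DIDO3ΔCT+HADIDO3. Over all 24883 features tested, 23.2% were called, 11.9% higher and 11.4% lower, and among features that shared no base with another 30.7% were called, 14.8% higher and 15.9% lower. The median log2 fold change was 0.044, beside 0.006 over all features. Groups did not overlap for 143 features (88.3%), against 54.9% of all features tested.

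Grk1 differed most between the mutant lines, by a log2 fold change of 4.16 ± 0.35 (limma adjusted p = 0.000898). Rnf150, a RING-type ubiquitin ligase, had 0.592, 0.568 and 0.629 TPM in WT, 1.31, 1.45 and 1.22 in DIDO3ΔE16 cells, and 0.07, 0.073 and 0.005 in DIDO3ΔCT+HADIDO3. The values in DIDO3ΔCT+HADIDO3 rest on very few reads, and the size of the difference (3.3 ± 0.25, limma adjusted p = 0.000639) depends on the 0.1 TPM added before logs. Fbxo32, the muscle ubiquitin ligase component atrogin-1, had 1.39, 0.992 and 1.03 TPM in WT, 3.65, 3.89 and 3.43 in DIDO3ΔE16 cells, and 0.319, 0.419 and 0.369 in DIDO3ΔCT+HADIDO3. The 3 groups were apart and DIDO3ΔE16 was 8.12-fold above DIDO3ΔCT+HADIDO3 (3.02 ± 0.15, limma adjusted p = 0.000209). In the other direction, St8sia1, Kcnc1 and Ikzf2 were lower in DIDO3ΔE16. Ikzf2, the zinc finger protein Helios, had 1.5, 1.54 and 1.67 TPM in WT, 0.872, 1.33 and 1.56 in DIDO3ΔE16 cells, and 4.61, 4.44 and 5.22 in DIDO3ΔCT+HADIDO3 (-1.86 ± 0.23, limma adjusted p = 0.00317), and the spread within DIDO3ΔE16 reached into WT.

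**Figure D3:**
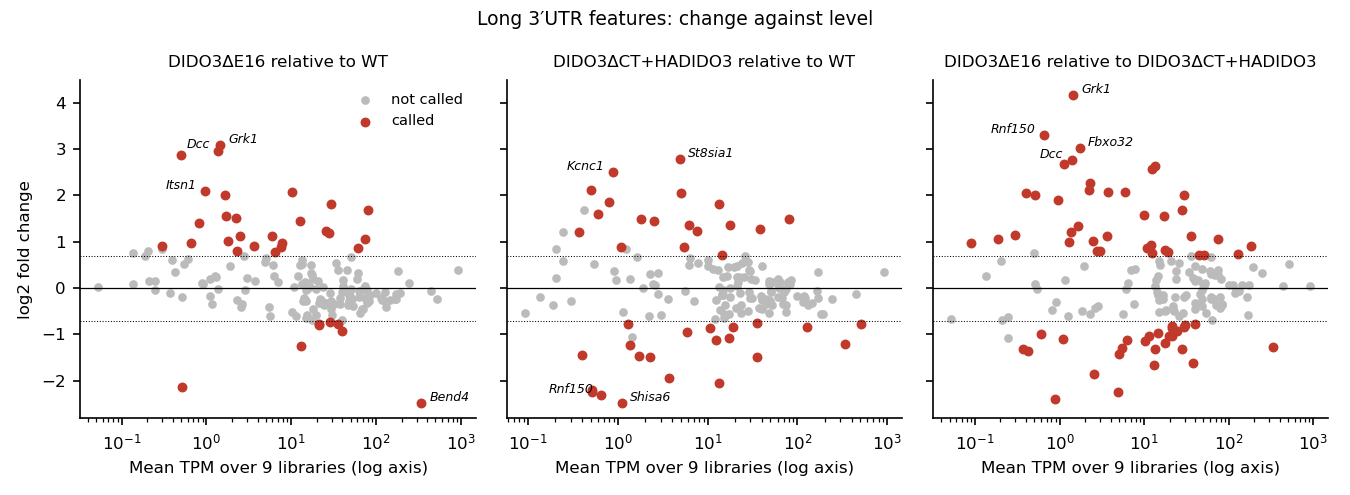
Log2 fold change of each tested long feature against its mean TPM over 9 libraries (log axis) in the 3 comparisons. Red points were called and dotted lines mark 0.7 in each direction. Calls occurred at all levels, with Grk1 at 4.16 in the direct comparison and Bend4 at -2.47 in DIDO3ΔE16 among the outermost.

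Members were also grouped by 6 functional lists, which together held 39 of the 173 features. Chromatin and transcription regulators had 9: Bach2, Bcl11a, Crebrf, Foxk1, Ikzf2, Kdm5a, Med13, Onecut2 and Sox11. In DIDO3ΔE16, 8 were tested, 2 rose (Bach2 and Onecut2), 1 fell (Sox11) and 5 were not called, with a median of -0.13; over the whole list 10 of 133 tested genes rose and 7 fell, with a median of -0.03. In DIDO3ΔCT+HADIDO3, 1 rose (Ikzf2) and 2 fell (Bach2 and Sox11), with a median of -0.36 beside -0.13 for the list, of which 9 of 132 rose and 12 fell. Bach2, a repressor of the BTB and leucine zipper type known from B cells, had 9.15, 8.85 and 7.83 TPM in WT, 25.4, 22.8 and 25.9 in DIDO3ΔE16 cells, and 4.19, 4.26 and 4.03 in DIDO3ΔCT+HADIDO3. No groups overlapped, and Bach2 was 2.73-fold higher in DIDO3ΔE16 (limma adjusted p = 0.000968) and 2.18-fold lower in DIDO3ΔCT+HADIDO3 (limma adjusted p = 0.00176) than in WT.

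Neuronal channel, synapse and axon genes had 7: Cacna1e, Camk4, Dcc, Grik3, Kcna1, Kcnc1 and Nova1. Of 6 tested in each line, 3 rose and none fell in DIDO3ΔE16 (Camk4, Dcc and Grik3), and 4 rose and none fell in DIDO3ΔCT+HADIDO3 (Camk4, Grik3, Kcnc1 and Nova1). The medians were 1.04 and 1.19, beside 0.46 and 0.16 for the tested genes of the whole list, of which 20 of 82 rose and 4 fell in DIDO3ΔE16, and 21 of 81 rose and 13 fell in DIDO3ΔCT+HADIDO3. These counts hold for the 7 features alone: the list does not hold Shisa6, Sema5a and Dab1, which were called lower in DIDO3ΔCT+HADIDO3, nor Kcna6, Epha4 and Nova2, which were called higher there. Except for Grik3 and Nova1, the named features of this list were below 1 TPM in WT. Nova1, a neuronal splicing regulator, had 4.62, 4.33 and 4.14 TPM in WT, 3.54, 3.03 and 3.74 in DIDO3ΔE16 cells, and 8.47, 7.89 and 9.82 in DIDO3ΔCT+HADIDO3. Only DIDO3ΔCT+HADIDO3 was called against WT (0.89 ± 0.11, limma adjusted p = 0.00497), and the mutant lines differed (-1.30 ± 0.13, limma adjusted p = 0.00155).

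Receptors, kinases and signalling genes had 13. Of 12 tested, 1 rose in DIDO3ΔE16 (Prkca), and in DIDO3ΔCT+HADIDO3 2 rose (Epha4 and Irs1) and 2 fell (Pik3ca and Cdk6), with medians of 0.08 and -0.21 beside -0.16 and -0.18 for the list. Over the whole list 6 of 125 tested genes were higher and 6 lower in DIDO3ΔE16, and 7 of 125 higher and 13 lower in DIDO3ΔCT+HADIDO3. Prkca, protein kinase C alpha, had 2.78 ± 0.331 TPM in WT, 5.52 ± 0.493 in DIDO3ΔE16 cells and 2.50 ± 0.27 in DIDO3ΔCT+HADIDO3. Pik3ca, the catalytic subunit of phosphatidylinositol 3-kinase, had 22.1 ± 1.83, 22.6 ± 0.726 and 13.3 ± 1.62 TPM in that order. Its call between the mutant lines was lost without DIDO3ΔCT+HADIDO3 replicate 1. The call of Prkca in DIDO3ΔE16 was lost with an adjusted p threshold of 0.01.

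The RNA-binding and microRNA pathway list had 4 (Ago2, Nova1, Rbm33 and Rc3h1), none called in DIDO3ΔE16 and 1, Nova1, called in DIDO3ΔCT+HADIDO3, with medians of -0.27 and -0.02. Over the whole list 2 of 87 tested genes were higher and 6 lower in DIDO3ΔE16, and 3 of 86 higher and 6 lower in DIDO3ΔCT+HADIDO3, with medians of -0.16 and -0.14. Rc3h1, or roquin, which binds stem loops of target mRNAs, had 52.6 ± 3.75, 45.3 ± 0.808 and 47.0 ± 4.32 TPM in WT, DIDO3ΔE16 and DIDO3ΔCT+HADIDO3, and Rbm33 had 82.5 ± 2.48, 71.6 ± 3.21 and 93.3 ± 2.89. Ubiquitin ligases and deubiquitinases had 4 (Btbd7, Rnf165, Trim67 and Usp31), of which Trim67 was called, higher in DIDO3ΔE16, and none in DIDO3ΔCT+HADIDO3, with medians of -0.18 and -0.39; over the whole list 3 of 79 tested genes were higher and 2 lower in DIDO3ΔE16, and 1 of 80 higher and 6 lower in DIDO3ΔCT+HADIDO3, with medians of -0.14 and -0.21. The list does not hold Hecw2, Rnf150 and Fbxo32, ubiquitin ligase genes described above that were called in both lines. Trim67, a neuronal tripartite motif protein, had 1.59, 1.44 and 1.19 TPM in WT, 4.53, 4 and 4.58 in DIDO3ΔE16 cells, and 1.03, 1.01 and 0.815 in DIDO3ΔCT+HADIDO3 (1.52 ± 0.15 to WT, limma adjusted p = 0.00308). Usp31 had 51.0 ± 3.49, 41.6 ± 2.27 and 45.8 ± 2.71 TPM, and Rnf165 52.8 ± 1.78, 51.1 ± 3.85 and 39.0 ± 1.34. Membrane traffic and cytoskeleton genes had 3 (Epb41, Itsn1 and Kif5c), with a call of Itsn1 in DIDO3ΔE16 and none in DIDO3ΔCT+HADIDO3, and medians of -0.05 and 0.07. Over the whole list 4 of 91 were higher and 4 lower in DIDO3ΔE16, and 6 of 90 higher and 5 lower in DIDO3ΔCT+HADIDO3, with medians of -0.12 and -0.06. Kif5c, a kinesin heavy chain, had 16.8 ± 1.32, 17.0 ± 1.38 and 11.4 ± 1.22 TPM.

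For 61 of the features the same gene had other features in the tables. Itsn1, an endocytic scaffold, is an example. The long feature had 0.423, 0.323 and 0.377 TPM in WT, 1.61, 2.37 and 2.04 in DIDO3ΔE16 cells, and 0.446, 0.353 and 0.632 in DIDO3ΔCT+HADIDO3. It was 4.24-fold above WT in DIDO3ΔE16 (2.08 ± 0.20, limma adjusted p = 0.00306), with no overlap, while the summed TPM of the other 4 features of the gene was 69.4 ± 2.37 in WT, 69.8 ± 4.03 in DIDO3ΔE16 cells and 68.3 ± 0.781 in DIDO3ΔCT+HADIDO3. Of Itsn1 RNA, the long feature was thus a small share in all groups. Etnk1 is the 1 gene with 2 features among the 173. Its distal feature (uc009eqf.3) held most of its TPM, and the proximal one (uc009eqe.1, 7565 bases) had 41.5 ± 5.26, 40.8 ± 0.621 and 37.1 ± 2.91 TPM in WT, DIDO3ΔE16 and DIDO3ΔCT+HADIDO3. For Btbd7 the long feature had 2.16 ± 0.342, 1.89 ± 0.343 and 2.87 ± 0.411 TPM against 91.6 ± 7, 100.4 ± 3.94 and 110.3 ± 4.42 in the other 4, and for Epb41, a membrane skeleton protein, 2.68 ± 0.227, 2.18 ± 0.249 and 3.01 ± 0.363 against 169.7 ± 4.54, 169.6 ± 6.86 and 186.9 ± 5.56 in the other 9. Neither long feature was called.

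The share of features called was set beside that of shorter features that shared no base with another. In DIDO3ΔE16 it was 15.8%, 15.4%, 17.4%, 16.1% and 19.2% for classes of 2000 to 2999, 3000 to 3999, 4000 to 4999, 5000 to 5999 and 6000 to 6999 bases, and 20.9% at 7000 or more. In DIDO3ΔCT+HADIDO3 the shares were 19.1%, 20.2%, 20.9%, 19.3%, 32.2% and 24.2%, and between the mutant lines 29.8%, 30.3%, 32.4%, 33.2%, 36.1% and 40.7%. The spread moved with length as well. The median SD within groups in the fit of DIDO3ΔE16 and WT was 0.173 (log2) in the shortest of these classes and 0.084 in the longest, and WT levels rose from a median of 0.86 to 15.53 TPM. The share of features past 0.7 whatever their p was 23.8% in the shortest class and 22.7% in the longest in DIDO3ΔE16, 26.6% and 27.3% in DIDO3ΔCT+HADIDO3, and 36.6% and 42.0% between the mutant lines. Among features with a WT mean of 5 to 50 TPM, 13.4% of the shortest class and 17.6% of the longest were called in DIDO3ΔE16, 16.4% and 16.2% in DIDO3ΔCT+HADIDO3, and 27.6% and 42.6% between the mutant lines, with 68 features in the longest class. These shares are a description, with no test of the difference between classes. At the edge of the class, Prtg (7005 bases) and Pdzd2 (7022 bases) were just inside and Gm37397 (6998 bases) and Tnfsf15 (6986 bases) just outside, with WT means of 23.6, 2.29, 8.47 and 0.22 TPM.

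**Figure D4:**
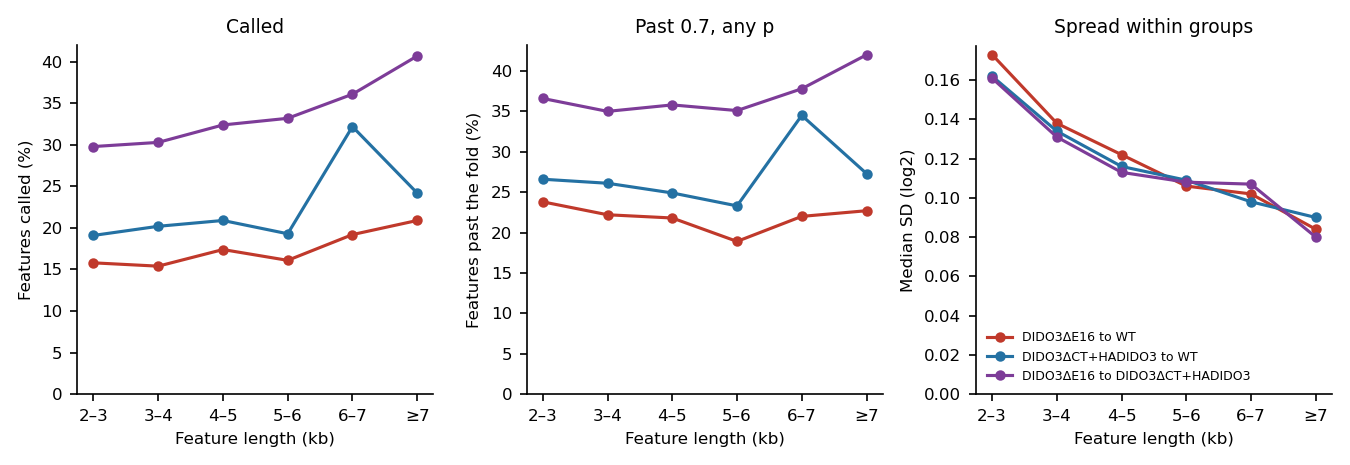
Features that shared no base with another, by length in kb: the percentage called, the percentage past an absolute log2 fold change of 0.7 whatever the p, and the median SD within groups in log2 units, for the 3 comparisons. From the shortest to the longest class the SD fell from 0.173 to 0.084 in the comparison of DIDO3ΔE16 with WT, while the percentage past 0.7 went from 23.8% to 22.7%.

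Sequence matches were counted in the 3′UTR of the 120 features with sequence (median 5955.5 bases, 41.0% GC), on the strand of the transcript. The miR-290 family match AGCACTT was in 68 (56.7%), the let-7 match CTACCTC in 44 (36.7%), the Pumilio motif TGTANATA in 82 (68.3%) and the AU-rich pentamer ATTTA in all 120. These shares were 4.9%, 2.9%, 7.5% and 41.4% in the class of 2000 to 2999 bases. Per 10 kb of 3′UTR the counts were close: 1.34 against 1.24 for AGCACTT, 0.73 against 0.73 for CTACCTC, 2.59 against 2.16 for TGTANATA and 20.1 against 18.4 for ATTTA. For the poly(A) signal only the last 40 bases were searched, whatever the length: AATAAA was there in 92 of the 120 (76.7%), and in 53.8%, 48.1%, 47.5%, 49.4% and 60.0% of the shorter classes in order of length. AATAAA or ATTAAA was there in 106 (88.3%). A match is a string of letters and was not tested for function.

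Changes were then set beside these matches. In DIDO3ΔE16, 64 tested features with AGCACTT had 9 calls higher and 3 lower with a median of -0.09, and 49 without it had 9 and 5 with a median of -0.04. In DIDO3ΔCT+HADIDO3, 65 with it had 4 higher and 8 lower with a median of -0.10, and 47 without it had 8 and 10 with a median of 0.07. For TGTANATA the medians with and without the motif were -0.09 and -0.04 in DIDO3ΔE16 and -0.15 and 0.04 in DIDO3ΔCT+HADIDO3. Between the mutant lines they were 0.01 and -0.06, and for AGCACTT 0.05 and -0.26. For CTACCTC they were -0.04 and -0.09 in DIDO3ΔE16, 0.01 and -0.12 in DIDO3ΔCT+HADIDO3, and 0.05 and -0.06 between the lines. None of these differences was tested.

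**Figure D5:**
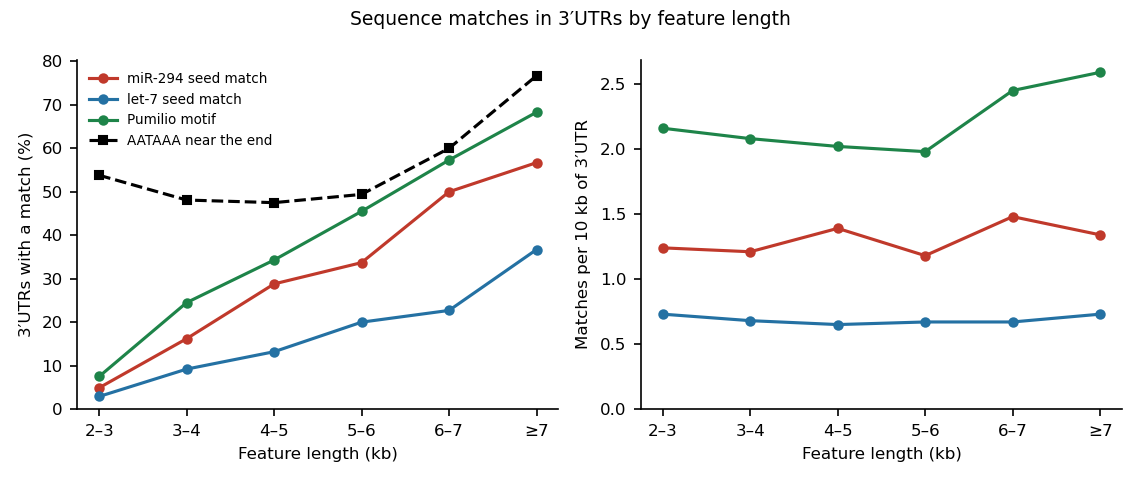
Left, percentage of 3′UTRs with at least 1 match, and with AATAAA in the last 40 bases, by feature length in kb; right, matches per 10 kb of 3′UTR. The percentage with AGCACTT went from 4.9% to 56.7% with length, while its density was 1.24 and 1.34 per 10 kb in the shortest and longest classes.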

How the data were processed

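ESC RNA was sequenced in 9 libraries (WT, DIDO3ΔE16 and DIDO3ΔCT+HADIDO3, 3 each). The authors aligned paired reads to mm10 with BWA (0.7.15), removed duplicates and quantified UCSC 3′UTRs, each extended by 2 kb, with StringTie (1.3.3). The paper describes the RNA-seq as stranded, but no strand setting is recorded for StringTie. Reads of both strands may thus count, which was not checked. The authors deposited TPM for each feature in every library, with no scaling between libraries and 3 decimals; coverage, as deposited, was used for depth only. The authors used edgeR; read counts were not used here, so limma (3.58.1, R 4.3.3) was applied to log2 TPM.

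Each library was divided by a scale factor, the mean log2 ratio of its features after trimming 30% from either side; 0.1 TPM was then added, and features above 0 TPM in every library of a comparison were fitted with limma (trend, robust, 2-sided) and adjusted by Benjamini-Hochberg over all of them. Fold changes are on the log2(TPM + 0.1) scale and understate changes of low features. Summaries used Python (3.11.15), numpy (2.4.6) and pandas (2.3.3). The fit was tested on simulated data. A first limit on the mean error of the fitted fold change was not met in every simulated set. That limit was then replaced by others, among them one that allows for the SE of the error.

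The class of features, the gene lists, the tests and the alternatives were chosen with earlier results of these data known. Named features are the 8 most abundant in WT; the 6 largest increases and 6 largest decreases called in each line against WT, and 3 each way between the lines, where 1 of the groups averaged 1 TPM or more; the longest and those nearest the length limit; and up to 4 per list. The lists hold genes for RNA binding, chromatin, signalling, ubiquitin, neurons and membrane traffic; marker lists hold ESC, feeder fibroblast and germ layer genes. The summed TPM of the 12 germ layer genes was 89.7 to 104.2 in WT, 104.6 to 117.6 in DIDO3ΔE16 and 52.1 to 63.6 in DIDO3ΔCT+HADIDO3, with Pax6 listed at 0 in every library. Features were assigned to genes of GENCODE M21. Alternatives were other pseudocounts, filters, scalings, fits, thresholds and length limits, omission of single libraries, and blocking on replicate number; TPM with 6 decimals and features with clean annotation were added after seeing the data. The number of deposited per-sample columns of no sample was 0.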

Additional observations from a re-analysis of the deposited data

Results flagged for a closer look

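The features of Hecw2, Fbxo32, Dab1, Rnf150 and Bach2 were called in both mutant lines relative to the shared WT libraries but in opposite directions, higher in DIDO3ΔE16 and lower in DIDO3ΔCT+HADIDO3. They were picked for this. Their calls in the direct comparison of the same mutant libraries follow from that choice and add no separate support. The log2 fold change of DIDO3ΔE16 relative to DIDO3ΔCT+HADIDO3 was 2.27 for Hecw2, 3.02 for Fbxo32, 2.07 for Dab1, 3.3 for Rnf150 and 2.56 for Bach2. Dab1, the adaptor of reelin signalling, was named after its values were seen, and 62.6% of its 3′UTR lay in exons of the gene. The other 2 features of Dab1 had a summed TPM of 4.715 ± 0.679 in WT, 5.356 ± 0.46 in DIDO3ΔE16 cells and 5.862 ± 4.205 in DIDO3ΔCT+HADIDO3. The long feature had 4.86, 5.22 and 3.81 TPM in WT, 9.08, 11.7 and 11.3 in DIDO3ΔE16 cells, and 2.34, 2.57 and 2.53 in DIDO3ΔCT+HADIDO3, with no overlap between groups, and log2 fold changes to WT of 1.13 ± 0.17 (limma adjusted p = 0.00923) and -0.96 ± 0.15 (limma adjusted p = 0.00963). The summed TPM of the 12 feeder fibroblast genes followed the same order of the groups, and its part in these differences was not tested. Rnf150 was below 0.1 TPM in every library of DIDO3ΔCT+HADIDO3, and its call in DIDO3ΔE16 was lost with flow cell family as a covariate, a pseudocount of 1 TPM and an adjusted p threshold of 0.01. With that pseudocount the calls of Fbxo32 and Rnf150 in DIDO3ΔCT+HADIDO3 were lost too. The call of Hecw2 in DIDO3ΔE16 was lost with that pseudocount, quantile normalization, the replicate block and the threshold of 0.01.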

How the results depend on the processing

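The counts of called features changed most with the definition of the class. At a length of at least 6000 bases, 69 of 345 tested were called in DIDO3ΔE16, 95 of 335 in DIDO3ΔCT+HADIDO3 and 131 of 342 between the lines. At 8000 bases the calls were 20 of 81, 20 of 80 and 30 of 81. Clean annotation, an alternative chosen after seeing the data, left 112 features, of which 105 were tested in each comparison. The counts were then 22 (14 higher and 8 lower, against 26 and 8 of all), 20 and 40. These sets hold more or fewer features, and shares moved less than counts. In the order 6000 bases, 8000 bases and clean annotation, the share called in DIDO3ΔE16 was 20%, 24.7% and 21%, against 20.9% in the main set. In DIDO3ΔCT+HADIDO3 it was 28.4%, 25% and 19%, against 24.2%. Between the lines it was 38.3%, 37% and 38.1%, against 40.7%. The 19% lay below the 19.9% of all features that shared no base with another. With a filter of 1 TPM in every library, 23 of 127 were called in DIDO3ΔCT+HADIDO3. The median log2 fold change was 0.049 at 6000 bases in DIDO3ΔE16 and 0.008 without scaling in DIDO3ΔCT+HADIDO3. Leaving out 1 library at a time gave 32 to 34 calls in DIDO3ΔE16, 36 to 41 in DIDO3ΔCT+HADIDO3 and 59 to 67 between the lines, with medians of -0.039 to 0.004, -0.113 to -0.055 and 0.020 to 0.051; an arm left with 2 libraries shared its spread with the other. Deviations of same-numbered libraries were hardly correlated (-0.0173 to 0.0235), and WT replicate 4 had no mutant library of its number. The fit with the replicate block gave 33, 35 and 66 calls and medians of -0.069, -0.112 and 0.056. In that fit WT replicate 4 has a block to itself. The mutant lines are thus compared with WT replicates 1 and 2-3 alone. For single features named in the text, 88 calls over the alternatives gave 1641 values, of which 38 lost the call and none reversed, and 77 results that were not called gave 1451 values, of which 24 were called. Features removed by the filter of 1 TPM gave no value there and were not counted as lost. The threshold of 1.5-fold is looser than the main one, so no call could be lost with it. TPM with 6 decimals are nearly the same data. The 38 thus understate how far calls of low features depend on the processing. Depth limits features below 1 TPM.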

Other observations

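Some long features outside the rule for naming were chosen after their values were seen. Stum had 0.047, 0.033 and 0.033 TPM in WT, 0.836, 0.863 and 1.14 in DIDO3ΔE16 cells, and 0.589, 0.388 and 0.61 in DIDO3ΔCT+HADIDO3, so every mutant library was above every WT library, at levels that rest on few reads. Nova2, a neuronal splicing regulator related to Nova1, had WT libraries at 10.7 ± 0.271 TPM (SD, n = 3), those of DIDO3ΔE16 at 13.0 ± 1.40 and those of DIDO3ΔCT+HADIDO3 at 29.9 ± 0.907, where it was 2.58-fold higher than in WT (limma adjusted p = 0.000311); 2652 bases of its feature were exons of Gm26821, a lincRNA on the opposite strand. Selenoi, an ethanolamine phosphotransferase of the pathway that begins with Etnk1, had 25.9 ± 1.71, 21.3 ± 0.57 and 66.7 ± 3.27 TPM in the order WT, DIDO3ΔE16, DIDO3ΔCT+HADIDO3, 2.40-fold higher in DIDO3ΔCT+HADIDO3 than in WT (limma adjusted p = 0.000524), while Etnk1 was lower there. Nos1, neuronal nitric oxide synthase, had 44.6 ± 0.846, 84.8 ± 1.15 and 54.3 ± 1.94 TPM. Cdk6, a kinase of the cell cycle, had 35.4 ± 2.06, 48.5 ± 3.52 and 22.5 ± 0.155 TPM; its call against WT in DIDO3ΔCT+HADIDO3 was lost without scaling.

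Nvl encodes a nuclear ATPase of ribosome biogenesis. Of its long feature, 1137 bases were exons of the opposite-strand pseudogene Fgfr3-ps, and reads of both strands may count. The long feature had 55.5, 52.6 and 50.5 TPM in WT, 113.9, 116.8 and 112.5 in DIDO3ΔE16 cells, and 54.3, 54.2 and 58.4 in DIDO3ΔCT+HADIDO3, and it was 2.07-fold higher in DIDO3ΔE16 than in WT (limma adjusted p = 0.000325). The other 2 features of the gene had a summed TPM of 111.9 ± 7.07 in WT, 80.5 ± 3.21 in DIDO3ΔE16 cells and 116.6 ± 5.60 in DIDO3ΔCT+HADIDO3. The sum over these 2 was lower in all 3 DIDO3ΔE16 libraries than in the other 6, which was not tested.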
